A study of Mus musculus with 36 samples.

Results

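Serinc3 and Yipf4 encode membrane proteins whose probe sets were far dimmer in the blood of 129S1/ImJ mice than in the blood of 5 other inbred strains, and they are described here with the paralogs Serinc1 and Yipf3. Every probe set that the array's annotation assigned to 1 of these 4 genes was taken, which gave 15 of the 45101 probe sets: 6 for Serinc3, 4 for Serinc1, 3 for Yipf4 and 2 for Yipf3. Of these, 13 had a mean over all arrays above the median probe set (log2 2.89) and were tested. Yipf4 1426417_at (mean 2.77) and Yipf3 1444012_at (mean 2.69) were too dim for that and are given as values only. Serinc3 and Yipf4 were picked because of their values in 129S1/ImJ blood, so for them the contrast of that strain with the others is given as a description, with no test.

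SERINC proteins pass through the membrane many times. They are named as serine incorporators for a proposed role in the synthesis of phosphatidylserine and sphingolipids, and human SERINC3 and SERINC5 are known as restriction factors that enter retrovirus particles and lower their infectivity. YIPF proteins are Golgi membrane proteins with a Yip1 domain, and in human cells YIPF3 and YIPF4 bind each other and have been described as receptors in the autophagy of Golgi membranes, through binding to Atg8 proteins. In whole blood much of the RNA comes from reticulocytes, the young red cells that clear their own organelles while they mature.

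Blood was drawn from 18 male mice aged 8 weeks, 3 of the strain 129S1/ImJ and 3 of each of the strains FVB/NJ, DBA/2J, C57Bl/6J, C3H/HeJ and A/J. The strain label reads 129S1/ImJ, while the protocol text has 129S1/SvImJ. Each mouse's RNA was put on an Affymetrix array in 2 forms, after removal of globin mRNA with the GLOBINclear kit and as whole RNA, which gave 36 arrays in 12 groups of 3 mice. The labels name no agent and no engineered allele.

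The stretches upstream of both genes are shown because both were low in the same strain. Each is the 250 bases before the annotated start in the RefSeq table (build GRCm38.p6), 5′ to 3′ on the gene's own strand. Capitals mark matches on either strand to motifs chosen as common promoter elements. The first is the GC box, spelled GGGCGG. The second is the CCAAT box, spelled as its name. The core of ETS factor sites was searched as CCGGAA, which the other strand shows reversed and complemented. The half-site of the cAMP response element was searched as TGACG. Serinc3 lies on the minus strand at chr2:163645144-163645393 and Yipf4 on the plus strand at chr17:74489243-74489492.
Serinc3 upstream: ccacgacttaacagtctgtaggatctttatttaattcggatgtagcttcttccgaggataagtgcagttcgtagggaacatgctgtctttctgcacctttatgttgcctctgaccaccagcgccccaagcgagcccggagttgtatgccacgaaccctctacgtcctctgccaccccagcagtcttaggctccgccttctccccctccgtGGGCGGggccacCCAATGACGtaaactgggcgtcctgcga
Yipf4 upstream: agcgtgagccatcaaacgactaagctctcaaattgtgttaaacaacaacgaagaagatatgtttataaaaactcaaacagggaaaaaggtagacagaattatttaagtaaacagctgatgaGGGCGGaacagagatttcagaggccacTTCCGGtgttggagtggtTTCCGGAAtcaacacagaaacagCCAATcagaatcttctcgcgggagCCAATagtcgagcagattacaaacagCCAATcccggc
Both stretches hold a GC box and a CCAAT box, which 32.7% and 33.8% of the 32851 promoters in the table have. In Serinc3 there is 1 GC box at -40, 1 CCAAT box at -28 and 1 half-site of the cAMP response element at -24, the last sharing 1 base with the CCAAT box and found in 17.8% of promoters. In Yipf4 there is 1 GC box at -129, 3 CCAAT boxes at -61, -37 and -11, and 3 ETS cores, of which 2 overlap. An ETS core is in 12% of promoters. Neither stretch held the GATA site, searched as AGATAA and present in 9.99% of promoters. Neither held the E-box, searched as CACGTG and present in 6.02%. The matches describe these letters in the reference genome and not binding, and 129S1/ImJ sequence was not used here.

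The brightest Serinc3 probe set, 1455550_x_at, read 8.73, 9.66 and 8.87 on the log2 scale in GLOBINclear RNA of the 3 129S1/ImJ mice. The 15 mice of the other strains ranged over 11.63 to 12.50 there, with a median of 12.17. In whole RNA the same 129S1/ImJ mice had 7.40, 7.83 and 7.79, against 10.84 to 12.25 with a median of 11.75 in the other strains. No 129S1/ImJ array reached the dimmest array of another strain in either preparation. Averaged over the 2 arrays of a mouse, the set stood at 8.38 ± 0.34 in 129S1/ImJ (SD, n = 3), against 11.88 as the mean of the other 5 strain means. That is 3.50 log2 units or 11.3-fold lower, and leaving out any single mouse kept the difference between -3.68 and -3.34.

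Another 4 of the 6 Serinc3 sets were low in the same way. Set 1417815_a_at read 7.43, 8.06 and 7.74 in GLOBINclear RNA of 129S1/ImJ mice, against 10.13 to 11.24 with a median of 10.79 in the other strains, and 6.35, 5.75 and 6.03 in whole RNA, against 9.13 to 11.24 with a median of 10.07. Set 1456080_a_at read 4.32, 4.69 and 4.14 in GLOBINclear RNA of 129S1/ImJ mice, against 6.80 to 9.02 with a median of 8.11, and 5.67, 7.37 and 6.69 in whole RNA, against 8.72 to 11.25 with a median of 10.57. Set 1417816_s_at read 3.80, 4.43 and 3.49 in GLOBINclear RNA of 129S1/ImJ mice, against 5.99 to 8.46 with a median of 7.41, and 2.81, 2.81 and 3.48 in whole RNA, against 4.87 to 8.16 with a median of 7.23. In each of these 3 sets every 129S1/ImJ array was below every array of another strain in both preparations, and the differences of the mouse averages were -3.52, -3.60 and -3.55. The first 2 are 11.5-fold and 12.1-fold lower. In 1417816_s_at 4 of the 6 129S1/ImJ arrays were above the median of their own array, and with the others raised to that median it was at least 11.4-fold lower. Set 1434548_at read 3.41, 3.55 and 2.23 in GLOBINclear RNA of 129S1/ImJ mice, against 7.61 to 9.70 with a median of 9.18, and 2.32, 2.84 and 2.37 in whole RNA, against 6.26 to 8.48 with a median of 8.00. Only 2 of its 6 129S1/ImJ arrays were above the median of their own array, so its measured difference of -5.52 is against values near the bottom of the scale. With the other 4 raised to that median it was at least 37.5-fold lower.

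Set 1448847_at behaved otherwise. It read 3.89, 4.32 and 4.44 in GLOBINclear RNA of 129S1/ImJ mice, against 4.80 to 6.55 with a median of 5.53 in the other strains. In whole RNA it read 5.07, 5.03 and 4.90, against 4.84 to 5.92 with a median of 5.27, so the strains overlapped in whole RNA and stood apart in GLOBINclear RNA. Its difference of mouse averages was -0.80, or 1.74-fold lower. The 6 sets of this gene are readings of 1 gene in the same RNA and not independent of each other.

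**Figure D1:**
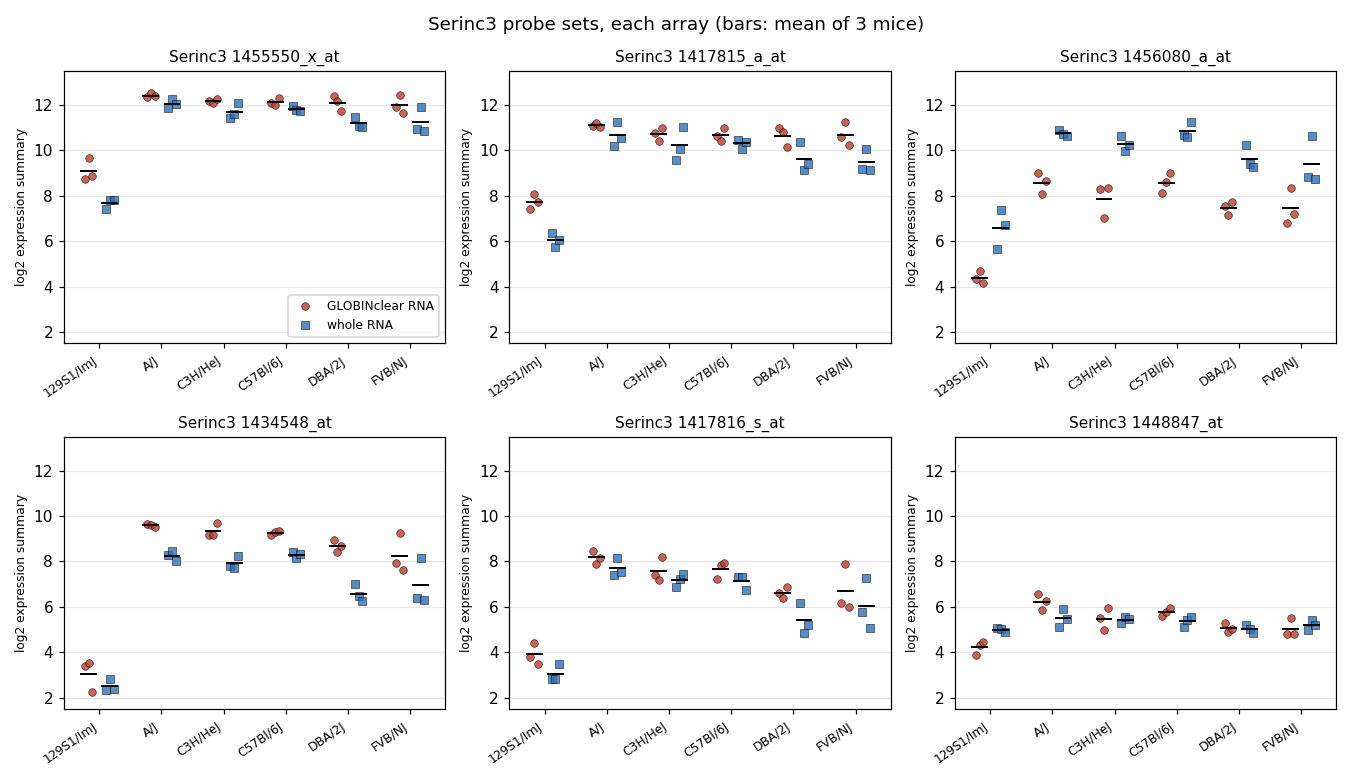
Log2 expression summary of the 6 Serinc3 probe sets on each array by strain, with circles for GLOBINclear RNA, squares for whole RNA and bars for the mean of 3 mice. In 5 panels every 129S1/ImJ point lies below every point of another strain in the same preparation, and in 1448847_at the whole-RNA points overlap.

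Yipf4 showed the same contrast in 2 of its 3 sets. The brightest, 1426416_a_at, read 5.67, 6.67 and 5.53 in GLOBINclear RNA of 129S1/ImJ mice, against 9.38 to 11.01 with a median of 10.26 in the other strains. In whole RNA it read 6.71, 8.12 and 5.68, against 10.30 to 11.98 with a median of 11.19. The groups did not overlap, and replicate 2 was the highest of the 3 129S1/ImJ mice in both preparations. The mouse averages were 6.40 ± 0.91 in 129S1/ImJ (SD, n = 3), against 10.78 over the other 5 strains, a difference of -4.39 or 20.9-fold lower. Leaving out 129S1/ImJ replicate 2 gave -4.89 and leaving out replicate 3 gave -3.99.

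Set 1450418_a_at read 4.21, 5.39 and 4.04 in GLOBINclear RNA of 129S1/ImJ mice, against 7.62 to 9.21 with a median of 8.76, and 4.43, 5.32 and 4.20 in whole RNA, against 7.29 to 9.29 with a median of 8.41. Again no arrays overlapped, and the difference was -3.85, or 14.4-fold lower. The dim set 1426417_at read 2.29, 2.32 and 2.38 in GLOBINclear RNA of 129S1/ImJ mice, against 2.48 to 3.80, and 2.56, 2.49 and 2.40 in whole RNA, against 2.41 to 2.98. None of its 6 129S1/ImJ arrays and 11 of the 30 arrays of the other strains were above the median of their own array, so it gives no fold.

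Yipf3, the partner of YIPF4 in human cells, had no such contrast. Its set 1451284_at read 5.53, 5.52 and 5.30 in GLOBINclear RNA of 129S1/ImJ mice, against 5.04 to 5.96 with a median of 5.32 in the other strains. In whole RNA it read 4.68, 4.1 and 4.25, against 3.97 to 5.0 with a median of 4.57. The 129S1/ImJ mice lay inside the range of the others in both preparations, with averages of 4.89 ± 0.18 (SD, n = 3), against 4.95, a difference of -0.06. The dim set 1444012_at differed by -0.09.

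**Figure D2:**
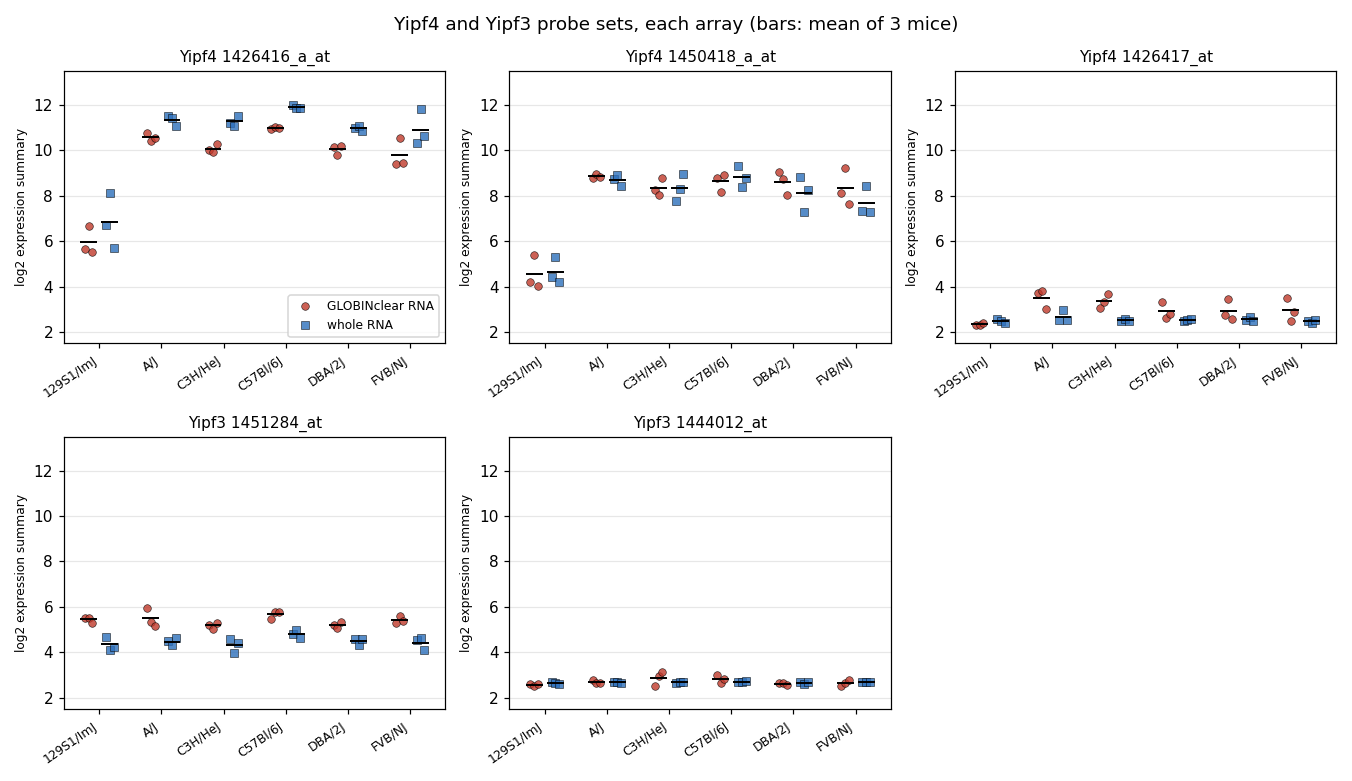
Log2 expression summary of the 3 Yipf4 and 2 Yipf3 probe sets on each array by strain, with circles for GLOBINclear RNA, squares for whole RNA and bars for the mean of 3 mice. The 129S1/ImJ points of Yipf4 1426416_a_at and 1450418_a_at lie below all others, those of Yipf3 1451284_at lie among them (4.89 against 4.95 on average), and the remaining sets are dim.

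Serinc1, the paralog of Serinc3 taken here, was lower on average in 129S1/ImJ but overlapped the other strains in all 4 sets. Its brightest set, 1415838_at, read 6.27, 7.85 and 5.23 in GLOBINclear RNA of 129S1/ImJ mice, against 6.60 to 9.48 with a median of 8.03 in the other strains. In whole RNA it read 7.53, 9.34 and 6.45, against 7.35 to 11.21 with a median of 9.55. Replicate 2 lay well inside the other strains, and replicate 3 was below all of them in both preparations. The difference of mouse averages was -1.58 with 7.11 ± 1.39 in 129S1/ImJ (SD, n = 3), against 8.69. It was -1.58 in 1448108_at, -1.56 in 1454811_a_at and -0.54 in 1437513_a_at. Single mice moved these values: 1415838_at stood at -2.32 without 129S1/ImJ replicate 2 and at -0.95 without replicate 3, and 1437513_a_at at -1.01 and -0.30. Set 1448108_at stood at -1.04 without replicate 3.

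FVB/NJ mice were as scattered for this gene. In 1415838_at they read 6.65, 9.29 and 6.60 in GLOBINclear RNA and 7.35, 11.21 and 7.79 in whole RNA, so replicate 2 stood far above its 2 strain mates. C57Bl/6J mice were the highest, with averages of 9.99 to 10.13, above every mouse of another strain except FVB/NJ replicate 2 (10.25).

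**Figure D3:**
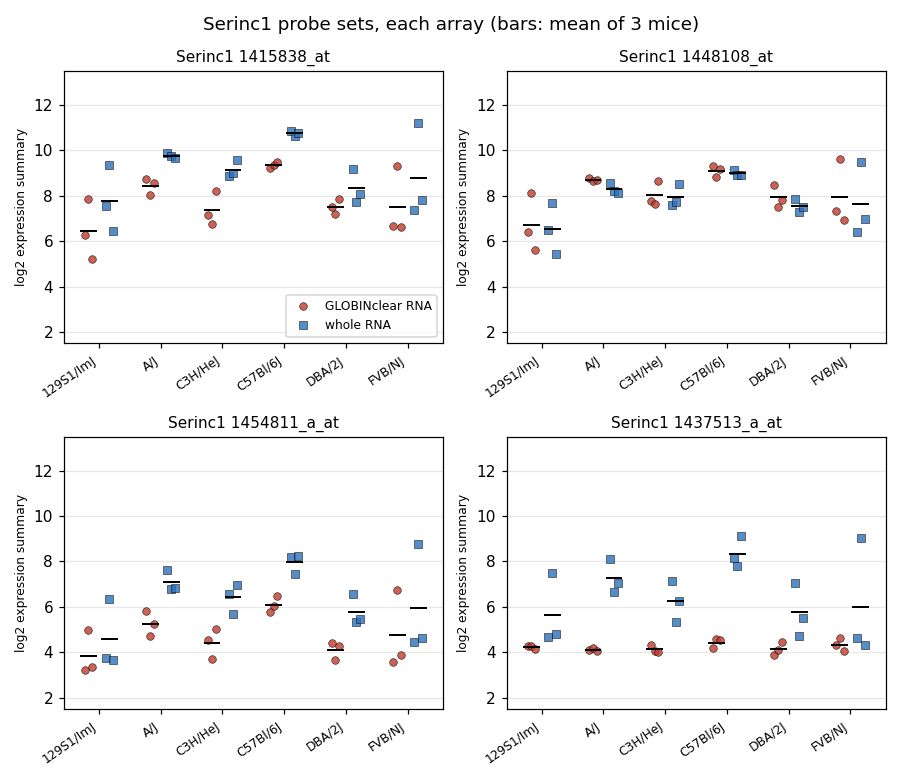
Log2 expression summary of the 4 Serinc1 probe sets on each array by strain, with circles for GLOBINclear RNA, squares for whole RNA and bars for the mean of 3 mice. One mouse each of 129S1/ImJ and FVB/NJ (replicate 2 in both) reads high, and the 129S1/ImJ points overlap those of other strains in every panel.

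Of the 13 tested sets, 8 had every 129S1/ImJ mouse below every other mouse on the averages of both arrays (all 6 of Serinc3, with 1448847_at overlapping in whole RNA alone, and 2 of Yipf4), against 1.05% of all tested sets. These are the values the genes were picked on, and nothing is read from them. Ranked by the difference, the 7 lowest of the 22518 tested sets were 5 of Serinc3 and 2 of Yipf4, 1448847_at was at rank 497, and the Serinc1 sets were at ranks 89 to 995.

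Among the other 5 strains, where the order was not used to pick the genes, the lead Serinc3 set averaged 11.61 ± 0.50 in FVB/NJ, 11.64 ± 0.27 in DBA/2J, 11.93 ± 0.21 in C3H/HeJ, 11.98 ± 0.07 in C57Bl/6J and 12.23 ± 0.14 in A/J (SD, n = 3 each). Neighbours in this order overlapped except A/J, whose mice were all above those of C57Bl/6J. The lowest A/J mouse (12.11) was still below the highest of C3H/HeJ (12.17) and of FVB/NJ (12.18). For Yipf4 1426416_a_at the order was FVB/NJ (10.35 ± 0.72), DBA/2J (10.51 ± 0.07), C3H/HeJ (10.66 ± 0.21), A/J (10.95 ± 0.17) and C57Bl/6J (11.44 ± 0.02), and only C57Bl/6J was apart from its neighbour. Yipf3 1451284_at had its lowest of these means in C3H/HeJ (4.76 ± 0.22) and its highest in C57Bl/6J (5.24 ± 0.13), with every neighbour overlapping.

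By limma's F test over these 5 strains 3 of the 13 sets passed the 0.05 threshold after Benjamini-Hochberg adjustment over all tested sets, against 8.86% of all tested sets, and all 3 were Serinc3 sets. Set 1417816_s_at spanned 1.92 log2 units between strain means, with 6.02 ± 0.38 in DBA/2J and 7.94 ± 0.09 in A/J (limma, adjusted p = 0.0169). Set 1448847_at spanned 0.81 (limma, adjusted p = 0.0342) and 1434548_at spanned 1.31 (limma, adjusted p = 0.049). The lead sets of Serinc3 (adjusted p = 0.364), Yipf4 (adjusted p = 0.343) and Serinc1 (adjusted p = 0.304) did not pass. The count rested on FVB/NJ replicate 2: without it 8 sets passed, the additions being Serinc3 1455550_x_at (limma, adjusted p = 0.0381) and 1456080_a_at (0.00942) and Serinc1 1415838_at (0.0145), 1454811_a_at (0.019) and 1437513_a_at (0.034). The count was 1 without any one of A/J replicates 1, 2 and 3, C57Bl/6J replicate 2, DBA/2J replicate 3 and FVB/NJ replicates 1 and 3, and 0 by limma without DBA/2J replicate 2 (4 at an unadjusted p under 0.05). The call of 1417816_s_at was lost without DBA/2J replicate 2 (limma, adjusted p = 0.0538), that of 1434548_at in 15 of the 18 fits that left out 1 mouse, and that of 1448847_at in 8 of them.

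Within some strains the same mouse was highest in most sets of Serinc3, Serinc1 and Yipf4. Over the 12 tested sets of Serinc3, Serinc1 and Yipf4, 129S1/ImJ replicate 2, FVB/NJ replicate 2 and DBA/2J replicate 1 were the highest mouse of their strain in 12 of 12 sets each, and C3H/HeJ replicate 3 in 10 of 12. The mean of 5 erythroid markers (Alas2, Slc4a1, Epb42, Rhag and Bpgm) was also highest in these mice, at 10.93 in 129S1/ImJ replicate 2 beside 10.01 and 10.23 in its strain mates, 11.35 in FVB/NJ replicate 2 beside 10.49 and 10.44, 10.89 in DBA/2J replicate 1 beside 10.57 and 10.72, and 11.07 in C3H/HeJ replicate 3 beside 10.57 and 10.67. In A/J and C57Bl/6J no mouse was highest in more than 7 of the 12 sets. The erythroid mean in A/J was highest in replicate 2 (11.37 beside 11.09 and 11.13), which was highest in 6 sets and lowest in 4. In C57Bl/6J it was highest in replicate 3 (11.01 beside 10.70 and 10.67), which was highest in 7 sets and lowest in 1. The lead of 129S1/ImJ replicate 2 was small in Serinc3 1417815_a_at (6.90 beside 6.89 and 6.88) and in 1448847_at (4.68 beside 4.48 and 4.67). Sets of 1 gene are repeat readings, and how often these mice were highest over all tested sets was not counted, so the counts are no trait of these genes. The Yipf3 set 1451284_at was highest in FVB/NJ replicate 2 too, but in 129S1/ImJ replicate 1, DBA/2J replicate 3 and C3H/HeJ replicate 1. Fewer cells of a type and less RNA per cell cannot be told apart in such bulk samples, and the part of erythroid RNA in these differences was not tested.

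Across strains the erythroid mean ran over 10.01 to 10.93 in 129S1/ImJ mice, against 10.44 to 11.37 in the others. Of the 7 markers listed, 5 were tested. Of these, 1 was called lower in 129S1/ImJ (Rhag, 5.07 against 6.91) and 1 higher (Bpgm, 14.06 against 13.78). Over all tested sets 3.02% were called lower and 2.76% higher. Alas2, the first enzyme of heme synthesis in red cells, averaged 14.25, against 14.14. The mean of 5 neutrophil markers ran over 6.23 to 8.98 in 129S1/ImJ, against 4.77 to 7.07, and that of 6 platelet markers over 10.37 to 10.49, against 10.35 to 11.77. Means of T cell, B cell, NK cell and monocyte markers overlapped (5.05 to 6.08 against 4.13 to 7.13, 4.09 to 5.21 against 3.88 to 6.66, 3.12 to 5.44 against 3.33 to 5.11, and 5.12 to 6.66 against 4.48 to 6.30). In the 129S1/ImJ contrast limma called 1 of 5 neutrophil markers (Mmp9, 5.44 against 3.90) and 1 of 6 T cell markers (Lat, 7.51 against 6.45) higher. It called 2 of 6 platelet markers lower (Ppbp, 10.79 against 12.43, and Gp1bb, 11.02 against 11.74). No tested B cell, NK cell or monocyte marker was called. The part of these cells in the Serinc3 and Yipf4 values was not tested.

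**Figure D4:**
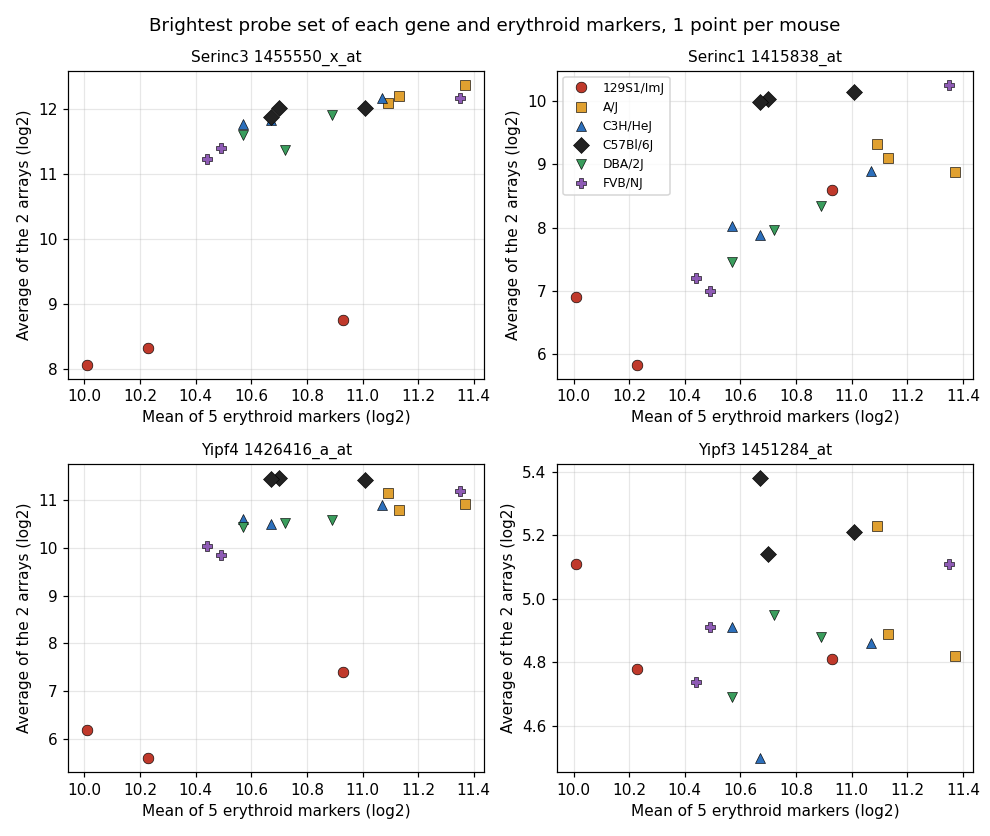
Average of the 2 arrays of each mouse for the brightest probe set of each gene (vertical axis, log2) against the mean of 5 erythroid markers (horizontal axis, log2), 1 point per mouse, marked by strain. The 129S1/ImJ mice, at 10.01 to 10.93 on the horizontal axis, lie below all others in the Serinc3 and Yipf4 panels and among them in the Yipf3 panel.

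Removal of globin mRNA, a contrast within mice that was not used to pick the genes, moved 11 of the 13 sets, and 87% of all tested sets moved. Of the members, 6 rose, against 39.4% of all tested sets, and 5 fell, against 47.6%. The median change of all tested sets was -0.05. Such shares lie near the background and are no result about these genes. One scaling matters to the directions below: with all 36 arrays forced to 1 distribution by quantile normalization the median of all tested sets was -0.08, and the value of each member under it is given beside its change.

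Serinc3 1455550_x_at averaged 11.64 ± 1.21 in GLOBINclear RNA, against 10.94 ± 1.56 in whole RNA (SD, n = 18 each). The rise of 0.70 ± 0.10 (SE) was seen in 18 of 18 mice (limma with mouse as block, Benjamini-Hochberg adjusted p = 2.38e-06) and turned to -0.12 under that quantile normalization. Set 1417815_a_at rose by 0.87 ± 0.14 in 16 of 18 mice (limma, adjusted p = 1.19e-05), which turned to -0.13, and 1417816_s_at by 0.69 ± 0.13 in 15 of 18 (limma, adjusted p = 7.11e-05), which turned to -0.44. Set 1434548_at rose by 1.28 ± 0.13 in 17 of 18 mice (limma, adjusted p = 1.29e-08), and by 0.26 under that normalization. Set 1456080_a_at fell by 2.19 on the log2 scale (SE 0.11) in 18 of 18 mice (limma, adjusted p = 2.46e-13), with -3.28 under the quantile normalization. Set 1448847_at changed by 0.04 ± 0.14 and did not pass, but it passed at -1.11 under the quantile normalization (limma, adjusted p = 2.43e-08).

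Serinc1 fell in 3 of its 4 sets, each in 18 of 18 mice. Set 1415838_at averaged 7.77 ± 1.21 in GLOBINclear RNA, against 9.09 ± 1.36 in whole RNA (SD, n = 18 each), and fell by 1.32 (SE 0.11; limma, adjusted p = 1.91e-09). Set 1454811_a_at fell by 1.55 (SE 0.14) and 1437513_a_at by 2.32 (SE 0.33). Under the quantile normalization these 3 stood at -2.5, -2.46 and -3.13. Set 1448108_at rose by 0.25 ± 0.07 in 14 of 18 mice (limma, adjusted p = 0.00213) and turned to -1 under the quantile normalization.

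Yipf4 1426416_a_at averaged 9.57 ± 1.74 in GLOBINclear RNA, against 10.54 ± 1.81 in whole RNA (SD, n = 18 each), and fell by 0.97 (SE 0.07) in 18 of 18 mice (limma, adjusted p = 3.63e-10), with -1.97 under the quantile normalization. Set 1450418_a_at changed by 0.17 ± 0.11 and did not pass (limma, adjusted p = 0.16), but it passed at -1 under the quantile normalization (limma, adjusted p = 1.89e-07). Yipf3 1451284_at averaged 5.40 ± 0.25 in GLOBINclear RNA, against 4.48 ± 0.26 in whole RNA (SD, n = 18 each). It rose by 0.92 ± 0.07 in 18 of 18 mice (limma, adjusted p = 1.12e-10), which turned to -0.14 under the quantile normalization.

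On the deposited scale sets of 1 gene differed in direction for Serinc3 and Serinc1, while under the quantile normalization all 4 Serinc1 sets were negative and 1434548_at alone of the Serinc3 sets was positive. The signal of 3′ over 5′ control sets was larger after depletion. For Actb this log2 difference was 1.12 ± 0.249 in GLOBINclear RNA, against 0.128 ± 0.184 in whole RNA, and for Gapdh 1.22 ± 0.197, against 0.131 ± 0.246 (SD, n = 18 each). Its part in the changes of these sets was not tested.

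**Figure D5:**
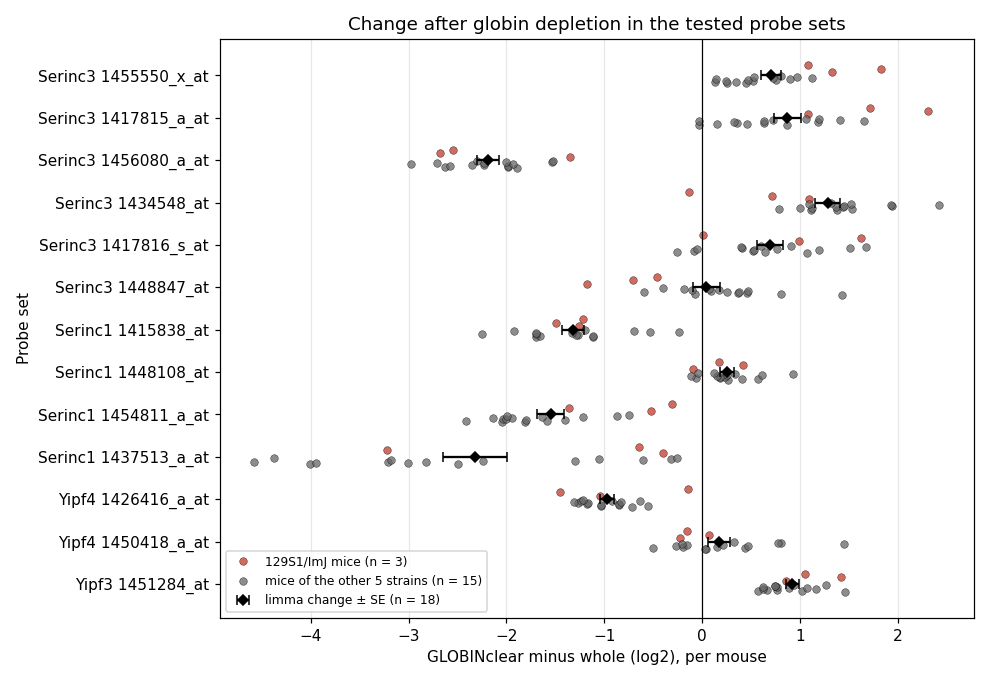
Change after globin depletion (GLOBINclear minus whole, log2) of each tested probe set, with small points for single mice (129S1/ImJ in red, the other strains in gray) and diamonds with bars for the limma change ± SE over 18 mice. Sets of Serinc3 and Serinc1 lie on both sides of 0, with 1456080_a_at at -2.19 and 1434548_at at 1.28. When all arrays are quantile normalized together 5 of the 6 rises change sign, some of them to values close to 0.

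Whether the change after depletion was the same in all strains was tested by limma's F test on the changes within mice, and 2 of the 13 sets passed, against 2.75% of all tested sets. Serinc3 1455550_x_at rose by 1.41 ± 0.14 in 129S1/ImJ (SE, n = 3 mice), and its rises in the other strains were 0.91 ± 0.14 in DBA/2J, 0.77 ± 0.14 in FVB/NJ, 0.46 ± 0.14 in C3H/HeJ, 0.35 ± 0.14 in A/J and 0.30 ± 0.14 in C57Bl/6J (limma F test, adjusted p = 0.0223). The change in 129S1/ImJ minus the mean of the other 5 was 0.86 ± 0.15 (limma, adjusted p = 0.0127), a difference that 1.59% of all tested sets passed. The set was 8.39-fold lower in 129S1/ImJ in GLOBINclear RNA and 15.2-fold lower in whole RNA. Serinc3 1434548_at, whose 129S1/ImJ values lay near the bottom of the scale, went the other way, with a rise of 0.56 ± 0.19 in 129S1/ImJ and rises of 0.97 to 2.10 in the other strains (limma F test, adjusted p = 0.0498), and the difference of -0.87 ± 0.21 did not pass on its own (limma, adjusted p = 0.0532). Yipf4 1426416_a_at was 20.2-fold lower in 129S1/ImJ in GLOBINclear RNA and 21.8-fold lower in whole RNA, and its changes did not pass the F test (limma, adjusted p = 0.777).

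Neither call held in every fit. The F test of 1455550_x_at was lost without 129S1/ImJ replicate 1 (limma, adjusted p = 0.0595), without 129S1/ImJ replicate 2 (0.054) and without C57Bl/6J replicate 2 (0.0527). That of 1434548_at was lost in 16 of the 18 fits that left out 1 mouse, all but those without 129S1/ImJ replicate 1 or 3, and its difference was -0.52 without 129S1/ImJ replicate 3. With all arrays quantile normalized together neither passed (limma, adjusted p = 0.76 and 0.427), and the difference of 1434548_at turned to 0.38.

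The wider gene families were read by the brightest set of each gene. Of 5 SERINC genes 3 were tested, Serinc2 and Serinc4 being too dim. Serinc5, the other SERINC restriction factor known from human cells, fell by 0.20 after depletion (limma, Benjamini-Hochberg adjusted p = 0.00562). Its change did not pass after median centring (-0.12) and stood at -0.69 with all arrays quantile normalized together. All 9 YIPF and YIF1 genes were tested: 5 rose and 3 fell after depletion, with a median change of 0.24, against 39.4% that rose, 47.6% that fell and a median of -0.05 over all tested sets. With all arrays quantile normalized together 3 rose and 4 fell, with a median of -0.12, against 30.9%, 51.1% and -0.08 over all tested sets. Yipf1 rose by 1.18 ± 0.06 and by 1.11 under that normalization. Yipf5, which acts in transport between the endoplasmic reticulum and the Golgi, rose by 1.26 ± 0.10, and its 0.11 under that normalization did not pass. In 129S1/ImJ the differences of the 8 family members other than Yipf4 ran over -0.16 (Yipf5) to 0.34 (Yif1b), and limma called none of these 8. An unadjusted p under 0.05 was seen in 1 of them, and in 3713 of all 22518 tested sets.

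Of 24 tested genes of Golgi and ER-to-Golgi transport 20 rose and 4 fell after depletion (against 39.4% and 47.6% of all tested sets), with a median of 0.80. When all arrays were quantile normalized together 12 rose and 7 fell (against 30.9% and 51.1% of all tested sets), with a median of 0.18. The SNARE genes Gosr2 and Stx5a rose by 1.76 ± 0.09 and 1.54 ± 0.05, and by 0.86 and 0.68 under that normalization. Rab6a, a small GTPase of the Golgi, rose by 1.71 ± 0.11, and by 0.44 under it. In the 129S1/ImJ contrast 2 of the 24 were called lower and 1 higher, 3.02% and 2.76% being the background. Rab6a averaged 6.18 in 129S1/ImJ, against 8.29 in the other strains, with no overlap, a difference of -2.11 (limma, Benjamini-Hochberg adjusted p = 8.35e-06). Its means also spanned 2.27 among the other 5 strains (limma F test, adjusted p = 1.41e-05), so its strain differences were not confined to 129S1/ImJ. Ergic1 averaged 3.28, against 3.85, and Gosr2 5.31, against 4.79, and neither passed when all arrays were quantile normalized together. Among the other 5 strains Ergic1 spanned 1.1 (limma F test, adjusted p = 0.0107), while Gosr2 spanned 0.43 and did not pass.

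The Atg8 family, whose proteins are bound by autophagy receptors, had 5 tested genes, of which 4 rose after depletion and 1 fell (against 39.4% and 47.6% of all tested sets), with a median of 0.72. Map1lc3a rose by 1.08 ± 0.09, Gabarapl1 by 0.96 ± 0.08 and Gabarap by 0.72 ± 0.08. These turned to -0.20, -0.27 and -0.14 when all arrays were quantile normalized together, where 1 of the 5 rose and 4 fell (against 30.9% and 51.1% of all tested sets). Gabarap was the 1 gene of this family called lower in 129S1/ImJ (background 3.02%), at 10.47 against 11.14, with overlapping mice (limma, adjusted p = 0.0133). Its means also spanned 0.99 among the other 5 strains (limma F test, adjusted p = 0.026).

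Of 10 tested phospholipid scramblases and flippases 5 rose and 3 fell after depletion (against 39.4% and 47.6% of all tested sets), with a median of 0.66. When all arrays were quantile normalized together 4 rose and 4 fell (against 30.9% and 51.1% of all tested sets), with a median of 0.05. The flippase Atp8a1 rose by 1.62 ± 0.09, and by 0.27 under that normalization. It was the 1 gene of this list called lower in 129S1/ImJ (background 3.02%), at 5.60 against 6.57 with no overlap (limma, adjusted p = 0.0114). Among the other 5 strains Atp8a1 spanned 0.48 and did not pass (limma F test, adjusted p = 0.859). The flippase Atp11b rose by 1.56 ± 0.11 and the scramblase Ano6 by 1.5 ± 0.10, and by 1.34 and 0.97 under the quantile normalization. Of 19 tested genes of serine, phosphatidylserine and sphingolipid synthesis 8 rose and 6 fell, with a median of 0.14. These are 42.1% and 31.6%, against 39.4% and 47.6% of all tested sets. Under the quantile normalization 5 rose and 9 fell (against 30.9% and 51.1% of all tested sets), with a median of -0.13. Sptssa, a small subunit of serine palmitoyltransferase, rose by 1.60 ± 0.09, and by 0.70 under it. The phosphatidylserine synthases Ptdss1 and Ptdss2 rose by 1.40 ± 0.08 and 1.37 ± 0.12, and Ptdss1 rose by 0.58 under that normalization, where Ptdss2, at 0.08, did not pass. In 129S1/ImJ limma called no gene of this list after adjustment. An unadjusted p under 0.05 was seen in 3 of the 19, and in 3713 of all 22518 tested sets.

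The genes around each locus were also read, since Serinc3 and Yipf4 lie on different chromosomes. Of the 10 genes on either side of Serinc3 on chromosome 2, 15 had a probe set and 7 were tested, with a median difference in 129S1/ImJ of -0.04 against -0.01 over all tested sets. None of the 7 was called by limma, and their differences ran over -0.17 (Ada) to 0.16 (Pkig). None had an unadjusted p under 0.05, which 3713 of all 22518 tested sets had. Only Pkig (mean over all arrays 8.14) and Ywhab (8.53) were bright, and they differed by 0.16 and 0.05. The other tested neighbours of Serinc3 had means of 2.93 (Ada) to 3.17 (Hnf4a), close to the median probe set. A lower level in 129S1/ImJ could hardly show in them, so nothing is read from their small differences. Of the 20 genes around Yipf4 on chromosome 17, 8 had a probe set and 7 were tested, with a median of -0.04. Ltbp1, which encodes a protein that binds latent TGF-beta, averaged 4.96 in 129S1/ImJ, against 6.38, with no overlap. Spast averaged 3.54, against 3.80, with overlapping mice. Both were called lower by limma, 3.02% of all tested sets being the background. Ttc27 and Fam98a were each higher in 129S1/ImJ by 0.30 and were not called, and Fam98a had an unadjusted p under 0.05. Yipf3 lies on chromosome 17 too, and Serinc1 on chromosome 10.

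The gene whose pattern was most like that of Serinc3 was Yipf4. Likeness was the root mean square difference of the 12 strain and preparation means, each set centred within a preparation, over 11353 genes, and it was 0.47 log2 units for this pair. Next for Serinc3 came Trim37 (0.60), Myl9 (0.63), Ghitm (0.69) and Nlrx1 (0.70), and for Yipf4 the same 4 genes at 0.87 to 0.97. Their differences in 129S1/ImJ were -2.58 for Trim37, -2.31 for Myl9, -2.24 for Nlrx1 and -2 for Ghitm, each with no overlap between strains. The measure includes the 129S1/ImJ means on which Serinc3 and Yipf4 were picked, and it is a description over groups that share mice between preparations.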

How the data were processed

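Each array had 1 deposited log2 value per probe set, and that scale was read from the values. GCRMA, MAS5 and the affy package are named per the submitters' processing notes, with no version. The labels do not say whether GLOBINclear and whole arrays were normalized jointly. No array was left out and 0 columns were unused. The 64 control sets were set aside, and sets with a mean over 36 arrays above the median of those means (log2 2.89) were tested, which left 22518. By the platform annotation 34945 sets had 1 gene symbol, 932 several and 9160 none, and a gene was named only from a set with 1. The lead set of a gene is its brightest on average.

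Fits used limma 3.58.1 in R 4.3.3 (with the package data.table, version 1.17.8) with an intensity trend and Benjamini-Hochberg adjustment over all tested sets at 0.05. The depletion fit held each mouse as a block, since the series' design pairs the preparations by mouse. Deviations from group means correlated at -0.0783 to 0.664 between the 2 arrays of a mouse. Strain comparisons used the averages over both arrays of a mouse. The scripts were tested on simulated data. Sequences and motifs were read with Python 3.11.15 and pandas 2.3.3, and figures drawn with matplotlib 3.10.9.

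The members, the gene lists and the tests were chosen with earlier results of these data known. Named by rule were all member sets, up to 3 genes per list with the largest change among those that rose or fell in every mouse, the 10 neighbours on either side, and the 5 genes nearest in pattern. List genes called in the 129S1/ImJ contrast were named after their values were seen. Precision is limited by the number of mice, 18 in all and 3 per strain. The p-values of the depletion fits rest on how the change within a mouse varied from mouse to mouse. Those of the strain fits rest on the spread in level between mice of a strain. Array medians were 2.78 to 2.86 in GLOBINclear and 2.86 to 2.94 in whole RNA, and each array's mean correlation with its own group was 0.944 to 0.990 in GLOBINclear and 0.958 to 0.985 in whole RNA. Probe sets of different sequence are not compared in level.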

Additional observations from a re-analysis of the deposited data

Results flagged for a closer look

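The change after globin depletion differed between strains for 2 Serinc3 probe sets by limma's F test. In 1455550_x_at the change in 129S1/ImJ exceeded the mean of the other 5 strains by 0.86 (1.41 in 129S1/ImJ and 0.30 to 0.91 in the others). In 1434548_at it was below that mean, by -0.87 (0.56 in 129S1/ImJ and 0.97 to 2.10 in the others). That difference did not pass on its own (limma, adjusted p = 0.0532). Only 2 of the 6 129S1/ImJ arrays of 1434548_at were above the median of their own array, so its change there was measured near the bottom of the scale. Its F test was lost in 16 of the 18 fits that left out a mouse, and that of 1455550_x_at in 3.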

How the results depend on the processing

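The limits of these results are 3 mice per strain, dim values in 129S1/ImJ, an unknown normalization and probes not checked against 129S1/ImJ sequence. The fold differences between strains are therefore differences of array signal. The cause of the changes below was not tested. Against 2 member sets whose depletion change differed between strains by limma, 1 passed after median centring of arrays, 1 after quantile normalization within a preparation and 1 with no filter on dim sets. With all arrays quantile normalized together 0 passed (3 at an unadjusted p under 0.05). With strain in place of mouse as the block, which drops the pairing by mouse, 0 passed (2 unadjusted). Leaving out 1 mouse gave 0 to 2 (4 to 6 unadjusted). Under the quantile normalization of all arrays the difference of 1434548_at became 0.38. Over all sets 366 passed under that normalization and 334 with a mean above log2 4, against 619. For depletion over all sets 38578 passed with no filter and 5628 with a mean above log2 4, against 19587, since the filter changes how many are tested. The changes that turned with quantile normalization of all arrays were -0.12, -0.13 and -0.44 for Serinc3 sets, -1 for Serinc1 1448108_at and -0.14 for Yipf3. The median over all tested sets was -0.08 there. Turned means a change of sign, whether or not the new value passed. For the other 5 strains 1 member set passed with no filter and 1 in GLOBINclear arrays alone, against 3, leaving out 1 mouse gave 0 to 8 (4 to 11 unadjusted), and over all sets 797 passed in whole arrays alone, against 1995. With replicate number as a block in this strain fit, although numbers do not pair mice across strains (median correlation 0.0264), 2 passed. Set 1434548_at did not (limma F test, adjusted p = 0.0657). The 129S1/ImJ difference of Serinc3 was -3.07 in GLOBINclear and -3.93 in whole arrays alone, and over the fits without 1 mouse it was -3.68 to -3.34. That of Yipf4 was -2.89 as the mean of its 3 sets, which takes in the dim set 1426417_at (-0.43) that gives no fold. In the lead Yipf4 set it was -4.89 to -3.99 without 1 mouse.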
